A study of Ptychodera flava with 8 samples.

Results

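Scaffold 14 of the acorn worm Ptychodera flava genome carried more accessible chromatin peaks per megabase than any other scaffold of at least 10 Mb at all 4 embryonic stages examined. It was selected on this value, so its peak density and everything that follows from it by arithmetic (counts per bin, mean gaps) are described here without a test. Its members were all peaks whose scaffold name began with that of scaffold 14, which gave 11791 of 202721 peaks in the 4 lists, of which 2793 were listed at the early blastula, 2856 at the early gastrula, 2527 at the mid gastrula and 3615 at the late gastrula. Merging of peaks that overlapped by at least 1 bp turned them into 4602 of 82811 consensus regions. Scaffold 14 is 41.8 Mb long by the length in its name and ranked 14 in length among the 27 scaffolds of at least 10 Mb. It made up 3.89% of their summed length and held 5.92% of their peaks. The smallest scaffold inside the length limit, scaffold 27, is 13.2 Mb long, and the largest outside it, scaffold 28, is 4.77 Mb long.

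The libraries were made from whole animals of this hemichordate at the early blastula and at the early, mid and late gastrula. Each stage had 2 ATAC-seq libraries, with embryos pooled to reach 75000 cells per sample. No treatment or genetic change separated the groups, and the labels name no cell type, so a peak stands for any cells of the embryo. The authors deposited 1 list of reproducible peaks per stage. There is therefore no value per replicate, no difference between stages has a replicate check, and sequencing depth is unknown. All intervals below are 95% intervals for counting error only, by Wilson's method for shares and from binomial order statistics for medians. In whole embryos, fewer cells with an open site and a less open site in each cell cannot be told apart.

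Most of an animal genome is wrapped around nucleosomes, and the stretches that are not, among them promoters and enhancers, are where regulatory proteins can reach the DNA. The Tn5 transposase used in ATAC-seq cuts such open stretches preferentially, so a peak marks accessible DNA. The blastula is a hollow ball of cells, and gastrulation then folds cells inward to form the gut and sets up the germ layers, while regulatory sites open and close across the genome. How densely such sites lie along a chromosome is commonly related to how densely its genes lie. No genome sequence or annotation of the build behind the lists was used here, so peaks were not assigned to genes and no sequences are shown. Coordinates are 1-based positions on scaffold 14 as the lists name it.

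Scaffold 14 carried 66.8 peaks per Mb at the early blastula, 68.3 at the early gastrula, 60.4 at the mid gastrula and 86.4 at the late gastrula. The other 26 large scaffolds together carried 41.3, 43.3, 38.8 and 58.0 peaks per Mb at the same stages. Its density was thus highest at the late gastrula and lowest at the mid gastrula, as it was on the other scaffolds. The scaffold next in density was scaffold 15 at the early blastula, with 57.6 peaks per Mb, and scaffold 21 at the 3 gastrula stages, with 61.1, 54.5 and 79.4 peaks per Mb. None of the 106 scaffolds under 10 Mb had more peaks per Mb than scaffold 14 in the sum of the 4 lists. Peaks covered 24.4, 23.9, 21.4 and 27.6 bp of each kb of scaffold 14 from the early blastula to the late gastrula, against 14.3, 14.6, 13.1 and 18.2 bp elsewhere.

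The high density was spread over nearly the whole scaffold. Along the 41 full 1 Mb bins, the lowest, median and highest bin held 28, 67 and 104 peaks at the early blastula and 31, 72 and 117 at the early gastrula. The corresponding counts were 23, 59 and 107 at the mid gastrula and 34, 89 and 141 at the late gastrula. The median bins of the other 26 scaffolds held 40.5, 43, 38 and 59 peaks. At these 4 stages 37, 37, 36 and 35 of the 41 bins exceeded the median bin of the other scaffolds, and 12 of 41 exceeded their 90th percentile in each list. No bin of scaffold 14 fell under their 25th percentile at any stage, which was also true of scaffold 15. The fullest single bins lay elsewhere. Scaffold 21 had bins of 108, 124, 115 and 167 peaks, and the highest bin of scaffold 14 ranked 2, 2, 3 and 6 among the highest bins of the 27 scaffolds.

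**Figure D1:**
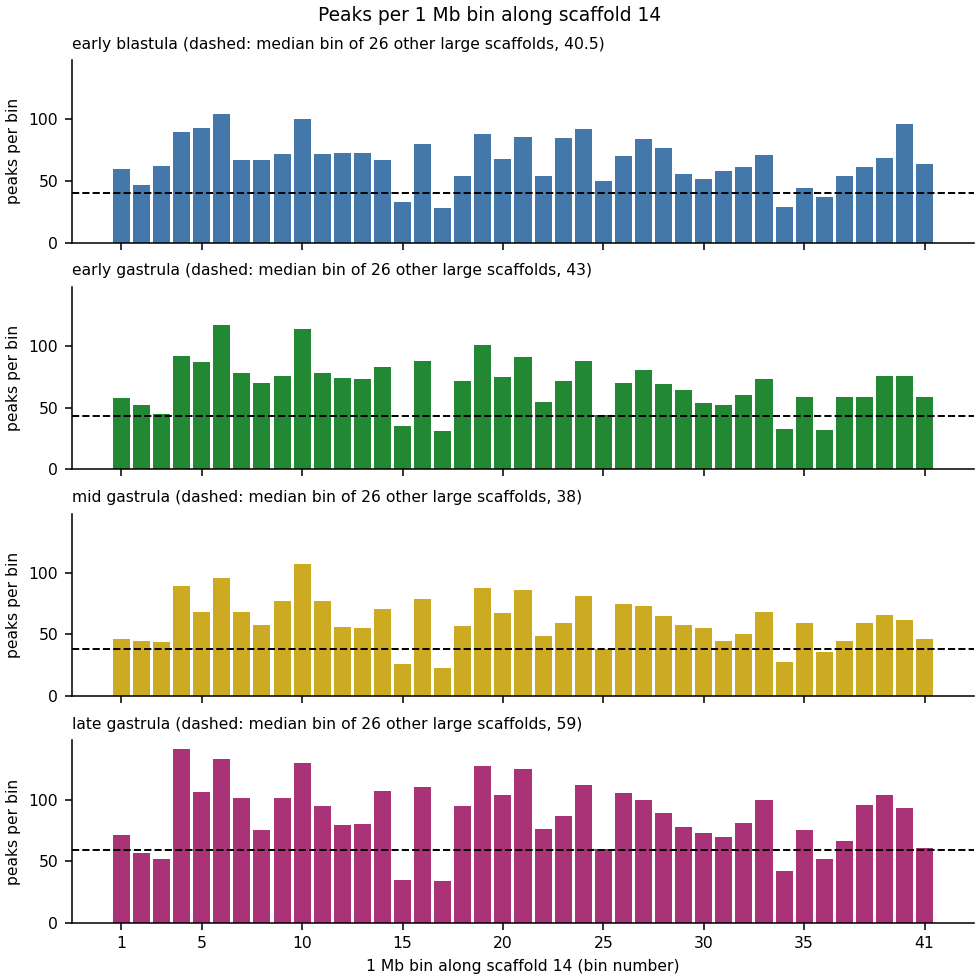
Number of peaks (y axis) with a summit in each of the 41 full 1 Mb bins of scaffold 14 (x axis, bin number), 1 panel per stage, with the median bin of the other 26 large scaffolds as a dashed line. Most bars pass the line in every panel, and the lowest bar is bin 17 in each.

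The bins were also more alike in their counts than those of any other large scaffold. The coefficient of variation over bins (the standard deviation divided by the mean) was 0.282, 0.293, 0.309 and 0.302 from the early blastula to the late gastrula. The medians of the other scaffolds were 0.486, 0.481, 0.506 and 0.476, and the next most even scaffold, scaffold 15, had values of 0.317, 0.324, 0.351 and 0.323. Across the 27 scaffolds, denser scaffolds were more even, with a Spearman correlation between density and this coefficient of -0.96 at the early blastula and -0.90 to -0.93 at the gastrula stages. These points share the lists and the bin size, and the coefficient rises by arithmetic where counts are small. The ratio of variance to mean, which does not, was 5.33, 5.90, 5.82 and 7.97 on scaffold 14, against medians of 10.6, 11.4, 10.4 and 13.9. It was the lowest of the 27 scaffolds except at the late gastrula, where scaffold 15 had 7.85.

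By the sum of the 4 lists, the densest bins of scaffold 14 were bin 10 with 451 peaks, bin 6 with 450 and bin 4 with 412. The sparsest were bin 17 with 116, bin 15 with 129 and bin 34 with 132. Bins 15 and 17 lay on either side of bin 16, so a dense bin separated the sparsest pair. The median bin held 314 peaks over bins 1 to 20 and 256 over bins 21 to 41. The profile along the scaffold was much the same at every stage. Spearman correlations of bin counts between stages ran from 0.82 (early blastula with late gastrula) to 0.96 (mid with late gastrula) over the 41 bins, which share the scaffold and the way the lists were made.

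More peaks at the late gastrula than at the early blastula were found in 38 of 41 bins (92.7%), close to the 93.1% of bins on the other scaffolds. The exceptions were bins 3, 40 and 41, where the early blastula led with 62 against 52 peaks, 96 against 93 and 64 against 61. Bins 40 and 41 are the last full bins of the scaffold. Early gastrula counts exceeded mid gastrula counts in 35 of 41 bins (85.4%), against 73.9% of bins elsewhere. They exceeded early blastula counts in 25 of 41 (61.0%), close to the 57.9% elsewhere.

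The clearest difference in spacing was a shortage of long gaps between peaks. The median edge-to-edge gap between neighbouring peaks was 6820 bp (6338 to 7398) at the early blastula, 6364 bp (5792 to 6834) at the early gastrula, 6482 bp (5977 to 7019) at the mid gastrula and 4763 bp (4349 to 5057) at the late gastrula. On the other scaffolds it was 7688, 7368, 7554 and 5238 bp. These medians differed little, and scaffold 25 had a shorter median gap at every stage. The longest gaps differed far more. The gap at the 99th percentile was 115049 bp on scaffold 14 and 293806 bp elsewhere at the early blastula, and 94811 against 197560 bp at the late gastrula.

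**Figure D2:**
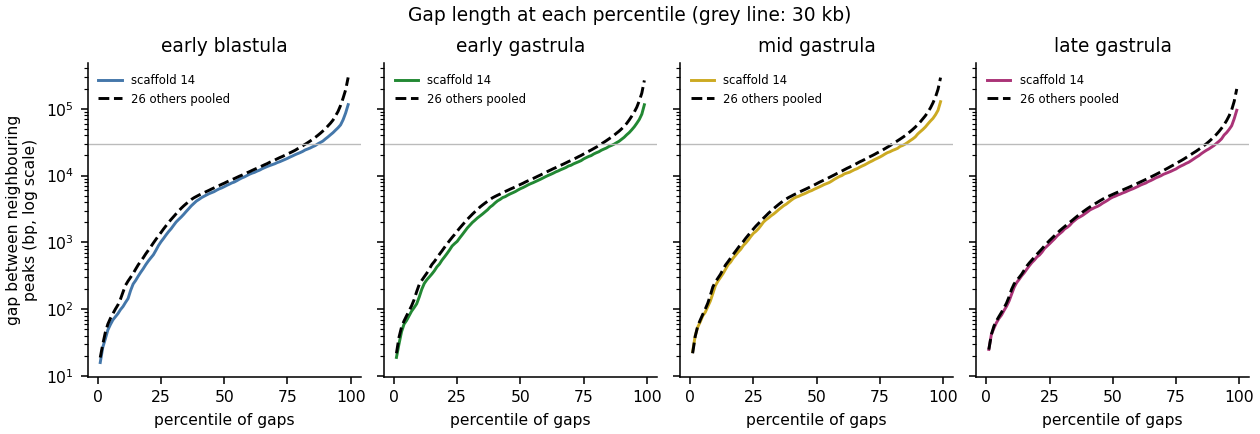
Gap between neighbouring peaks (y axis, bp, log scale) at each percentile of all gaps (x axis) on scaffold 14 (solid) and the other 26 large scaffolds pooled (dashed), 1 panel per stage. The solid curve lies below the dashed one at nearly every percentile, and the distance between them is widest at the longest gaps, above the grey line at 30 kb.

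Gaps over 30 kb made up 12.9% of gaps on scaffold 14 at the early blastula (361 of 2792), 12.5% at the early gastrula, 14.6% at the mid gastrula and 9.27% at the late gastrula. The pooled shares on the other scaffolds were 17.6%, 17.9%, 19.7% and 13.0%, and scaffold 14 had the lowest share of the 27 in each list. Such gaps took up 52.2%, 51.8%, 58.6% and 46.9% of the length of scaffold 14, against 71.7%, 71.2%, 74.7% and 64.9% elsewhere. Gaps over 100 kb took up 14.8%, 12.9%, 17.8% and 11.6% of its length, against 44.1%, 40.8%, 45.0% and 34.6%.

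Outside the gaps over 30 kb, scaffold 14 was not denser than the rest. It carried 139.8 peaks per Mb of the remaining length at the early blastula, 141.6 at the early gastrula, 145.9 at the mid gastrula and 162.7 at the late gastrula. The other scaffolds carried 145.8, 149.97, 153.1 and 165.6, and scaffold 14 ranked 21, 26, 24 and 18 of 27 from the highest. Outside gaps over 100 kb it carried 78.4, 78.4, 73.5 and 97.8 peaks per Mb against 73.9, 73.1, 70.5 and 88.7. The sign of the difference therefore depended on the gap length chosen. Over the 27 scaffolds, density and the share of length in gaps over 30 kb had Spearman correlations of -0.99 in all 4 lists, but these quantities are tied by construction, since the same peaks set both.

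**Figure D3:**
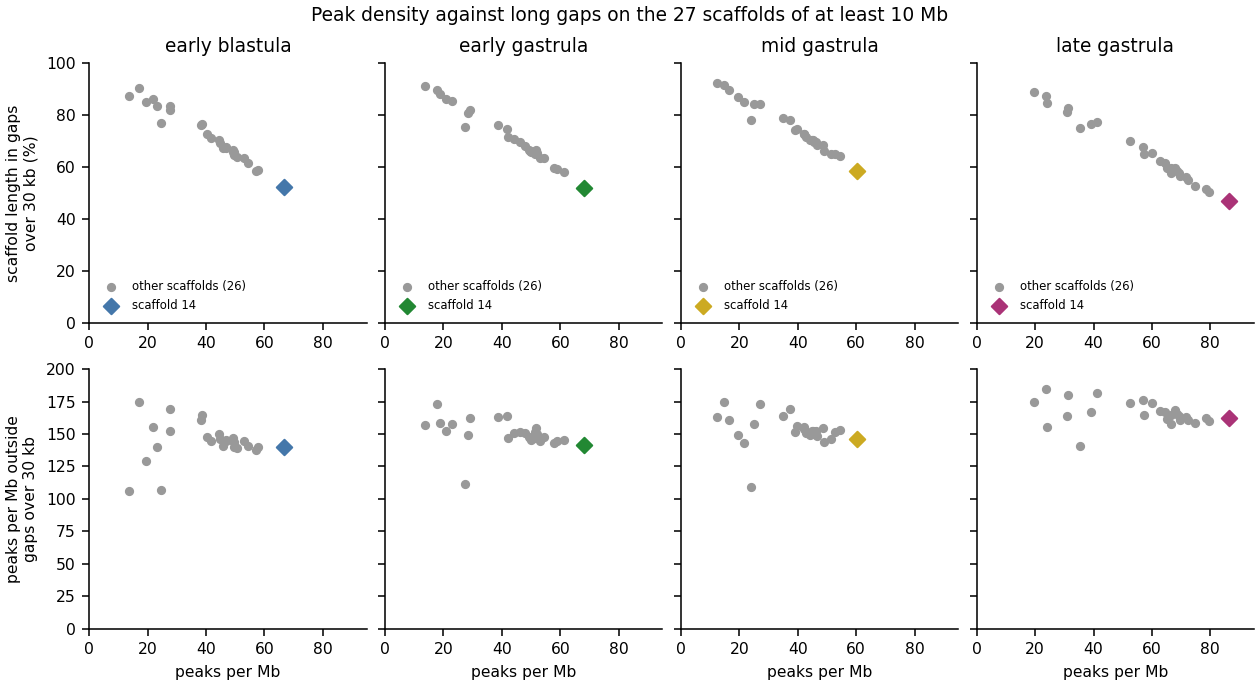
For each of the 27 scaffolds of at least 10 Mb, peaks per Mb (x axis) against the percent of the scaffold in gaps over 30 kb (upper row) and against the peaks per Mb outside those gaps (lower row), 1 column per stage, with scaffold 14 as a diamond. Scaffold 14 lies at the lower right end of the upper row and level with the other dense scaffolds in the lower row, at 139.8 to 162.7 peaks per Mb.

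In the union of the 4 lists, scaffold 14 held 110 consensus regions per Mb against 74.2 elsewhere, and 19 gaps over 100 kb with a total of 2812044 bp, or 6.72% of its length against 28.4%. Its longest gap without a peak at any stage ran from 33763113 to 34015274 in bin 34 (252162 bp). The next ran from 14236412 to 14459824 in bin 15 (223413 bp) and from 26730082 to 26941785 in bin 27 (211704 bp). The longest gap of the other large scaffolds had a median of 566643 bp, and scaffold 21 alone had a shorter longest gap. At the other end of the scale, 28.0% of gaps between regions were under 1 kb (26.7 to 29.3), the highest share of the 27 scaffolds, against 25.6% elsewhere.

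Regions with every gap under 1 kb were joined into runs. Runs of at least 2 regions held 47.4% of the regions of scaffold 14 and 43.6% elsewhere. Runs of at least 5 regions held 3.02% and 2.57%. The longest run had 7 regions on scaffold 14 and 11 elsewhere, but these maxima are over 4602 and 76722 regions and are not alike. The run of 7 regions spanned 3726 bp at 15197806 to 15201531 in bin 16, the dense bin between the sparse ones. It held 5, 4, 4 and 5 peaks from the early blastula to the late gastrula, and 3 of its regions were open at all 4 stages. Runs of 6 regions lay at 4371492 to 4376392 in bin 5 and at 5257872 to 5260887 in bin 6. The run in bin 5 held 6 peaks at the early blastula and 3 or 4 at the gastrula stages.

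Stage patterns were not used directly to choose the scaffold. A region open at all 4 stages adds a peak to each list, however, so a choice on peak density favours such regions. The shares below are therefore not independent of the choice. Of its 4602 regions, 1468 had a peak at all 4 stages (31.9%, 30.6 to 33.3), which was the highest share of the 27 scaffolds. Over all consensus regions the share was 29.1%, on the other large scaffolds it was 29.0%, and the next highest was 31.4% on scaffold 25. Regions open at the late gastrula alone numbered 737 (16.0%, 14.98 to 17.1), the lowest share of the 27 scaffolds, against 18.7% over all regions, 18.8% on the other large scaffolds and 16.5% on scaffold 15, the next lowest. With lists of equal length the difference from the other scaffolds went from -2.80 to -1.34 percentage points. Regions open at the early blastula alone numbered 509 (11.1%, 10.19 to 11.999), against 10.2% both over all regions and on the other large scaffolds. Scaffold 14 ranked 7 from the highest for that share, and the difference of 0.90 points was 0.50 (-0.56 to 1.63) with lists of equal length. In each case the excess or shortfall was at most 2.90 percentage points.

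Counted per Mb, scaffold 14 led in constant regions, those open at all 4 stages, with 35.1 per Mb against 30.03 on scaffold 21. It led likewise in regions of the early blastula alone, with 12.2 per Mb against 10.8 on scaffold 15. It ranked 3 in regions of the late gastrula alone, with 17.6 per Mb, behind a highest value of 18.9 on scaffold 20. It also led in regions of the 3 gastrula stages, with 8.82 per Mb, and ranked 3 and 2 in regions of the early and of the mid gastrula alone. These counts per Mb carry the density on which the scaffold was chosen.

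**Figure D4:**
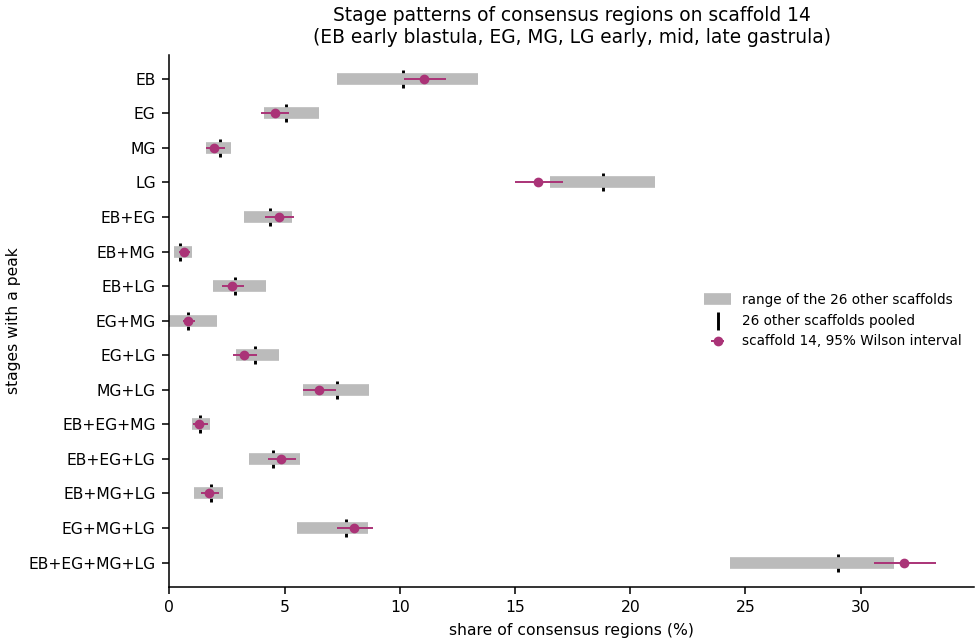
Percent of consensus regions (x axis) with each of the 15 combinations of stages (y axis) on scaffold 14 (points, with 95% Wilson intervals), over the other 26 large scaffolds pooled (ticks) and as their range (grey bars). Only the late gastrula alone, at 16.0%, and all 4 stages, at 31.9%, have points outside the grey bars.

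From stage to stage, scaffold 14 had shares of gained and lost regions close to those of the rest of the genome, with a smaller share of gains at the last step. From the early blastula to the early gastrula 765 regions were gained (16.6%, with 17.3% over all consensus regions) and 743 were lost (16.1%, with 15.3% over all). From the early to the mid gastrula 496 were gained (10.8%, with 11.7% over all) and 800 lost (17.4%, with 17.7% over all). From the mid to the late gastrula 1235 were gained (26.8%, 25.6 to 28.1), against 29.7% over all, and 216 were lost (4.69%, with 4.80% over all). The gain at this last step was the smallest share of the 27 scaffolds, next to 27.02% on scaffold 27. Between the end points 1553 regions were gained (33.7%, with 37.3% over all) and 816 lost (17.7%, with 16.4% over all). Of the regions open at the early blastula, 69.9% were open at the late gastrula, against 70.1% elsewhere, so retention was close to that of the other scaffolds.

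Along the scaffold, the bins with the highest and lowest share of each pattern are given here. Extremes picked from 41 bins would differ through counting error alone, and their intervals do not allow for the picking. Constant regions made up 42.0% of regions in bin 41 (31.8 to 52.8) and 22.6% in bin 15 (13.5 to 35.5), with a median bin at 31.4%. The intervals of these extreme bins overlapped. Regions of the early blastula alone made up 20.7% in bin 3 (13.4 to 30.7) and 4.71% in bin 35 (1.85 to 11.5). Regions of the late gastrula alone made up 27.7% in bin 38 (20.2 to 36.6) and 7.41% in bin 41 (3.44 to 15.2). The share of constant regions did not follow the number of regions in a bin (Spearman correlation -0.01 over the 41 bins). Between scaffolds it did. Over the 27 scaffolds, regions per Mb had Spearman correlations of 0.58 with the constant share and -0.58 with the share of the late gastrula alone. Without scaffold 14 these were 0.53 and -0.52.

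Bins of like density were then compared. In bins of 120 or more regions, constant regions made up 31.5% on scaffold 14 (17 bins, 29.7 to 33.4) and 30.8% elsewhere (141 bins). In bins of at least 80 and under 120 regions the shares were 32.3% (19 bins, 30.2 to 34.4) and 29.7% (336 bins). In bins of at least 40 and under 80 regions they were 33.1% (5 bins, 27.9 to 38.7) and 27.3% (321 bins). On the other scaffolds the constant share was thus lower in sparser bins. On scaffold 14 the 3 classes had overlapping intervals. With 287 regions in its sparsest class, these are too wide to tell whether its share changes with density. These bin classes were chosen after the values were seen.

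The share of neighbouring regions that were both constant differed from that elsewhere mainly at distances of 5 kb and more. Of the 274 neighbours at least 30 kb apart on scaffold 14, 29 pairs were constant on both sides (10.6%, 7.47 to 14.8), while the share elsewhere was 4.55% (327 of 7188, 4.09 to 5.06). Under 1 kb the shares were 15.7% on scaffold 14 and 15.7% elsewhere. From 1 to 5 kb they were 8.84% and 8.30%, and from 5 to 30 kb 10.1% and 7.72%. At 30 kb and over, pairs of any same pattern, constant ones included, made up 21.2% (16.7 to 26.4) against 13.8%. Pairs of the early blastula alone were few, at 9 of 274 (3.28%, 1.74 to 6.12) against 1.39%. Pairs of the late gastrula alone were 11 of 274 (4.01%, 2.26 to 7.04), an interval that held the 5.05% elsewhere.

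Peaks on scaffold 14 were slightly wide, as they were on dense scaffolds in general. Over the 27 scaffolds, density and median width had Spearman correlations of 0.91, 0.88, 0.79 and 0.77 from the early blastula to the late gastrula. Median widths were 308 bp (301 to 314) at the early blastula, 302.5 bp (296 to 309) at the early gastrula, 310 bp (303 to 317) at the mid gastrula and 279 bp (274 to 282) at the late gastrula. The other scaffolds had medians of 293, 290, 299 and 273 bp, and scaffold 14 ranked first in the first 3 lists and behind scaffold 15, at 282 bp, in the last. The late gastrula difference of 6 bp turned to -2 bp among peaks with an irreproducible discovery rate, the measure of agreement between replicates behind the lists, of at most 0.01. Within constant regions the median was 353.5 bp against 331 bp at the early blastula and 305 against 306 bp at the late gastrula. Peaks over 1 kb were few, at 28, 13, 12 and 8 from the early blastula to the late gastrula, or 1.00%, 0.455%, 0.475% and 0.221% of peaks against 0.845%, 0.409%, 0.260% and 0.208% elsewhere.

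More of the consensus regions also held several peaks of the same stage, namely 262 of 4602 (5.69%, 5.06 to 6.40), the highest share of the 27 scaffolds, against 4.16% elsewhere. The widest regions were all constant. The widest ran from 6956905 to 6958566 (1662 bp), where the peak at the early blastula was 414 bp wide and those at the mid and late gastrula were 1619 and 1613 bp wide. The next, from 4808764 to 4810291 (1528 bp), was 1 peak of 1104 bp at the early blastula and 3, 2 and 3 separate peaks at the early, mid and late gastrula. The region from 34274590 to 34276081 (1492 bp) held 2, 3, 3 and 2 peaks. A region could thus be called whole at 1 stage and in pieces at another.

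Enrichment on scaffold 14 was low, most clearly at the early blastula. It is the fold over background that the authors give for each peak, and it is read here only within its own list. The median enrichment on scaffold 14 was 6.64 at the early blastula, 7.92 at the early gastrula, 8.15 at the mid gastrula and 7.53 at the late gastrula, against 6.996, 8.13, 8.43 and 7.71 on the other scaffolds. As a percentile of each whole list, the median peak of scaffold 14 stood at 43.8 (41.8 to 45.7), 46.7 (44.7 to 48.6), 46.3 (44.1 to 48.6) and 47.1 (45.7 to 49.0). It was the lowest of the 27 scaffolds at the early blastula and ranked 24, 24 and 22 from the highest at the gastrula stages. Among peaks with a discovery rate of at most 0.01 the difference from the other scaffolds went from -3.15 to -1.46 points (-4.35 to 1.29) at the early gastrula and from -2.68 to -1.23 points (-3.82 to 1.52) at the late gastrula. The shortfall was largest at the early blastula, where both tails were affected. Peaks from the lowest 10% of a list made up 13.8%, 13.1%, 13.5% and 11.4% of those on scaffold 14, against 9.85%, 9.89%, 9.90% and 10.04% elsewhere. Peaks from the highest 10% made up 7.77%, 9.49%, 9.66% and 10.04%, against 9.87%, 9.82%, 9.74% and 9.75% elsewhere.

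Low enrichment did not mean a low score. Peaks at the maximum score of 1000, which the deposited files derive from the agreement between replicates, made up 41.1%, 41.6%, 40.6% and 41.2% on scaffold 14, against 37.2%, 39.7%, 38.1% and 39.5% elsewhere. These shares were the highest of the 27 scaffolds in the first 3 lists and second at the late gastrula. The median −log10 p was also slightly above that of the other scaffolds, for example 26.5 against 25.99 at the early blastula and 30.7 against 29.4 at the mid gastrula.

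Outside the constant regions enrichment was low in every class except peaks of the early gastrula alone. Within constant regions it was low at the early blastula, at rank 23 of 27 from the highest, and close to the rest later. Peaks in constant regions had median percentiles of 55.5 (52.7 to 57.5), 61.0, 59.7 and 65.8 from the early blastula to the late gastrula. Elsewhere these were 58.8, 61.8, 59.9 and 65.9. Peaks in regions of 2 or 3 stages stood at 37.4, 32.8, 31.4 and 41.4, against 45.3, 41.3, 39.3 and 47.8, and ranked 27, 27, 26 and 27 of 27. Peaks of the early blastula alone stood at 26.6 (23.7 to 29.5) against 35.7, also the lowest of the 27. The 90 peaks of the mid gastrula alone, at 22.7 (17.2 to 33.1) against 33.3, were likewise lowest, next to 23.8 on scaffold 21. Peaks of the late gastrula alone stood at 29.5 (27.4 to 31.2) against 32.2, and those of the early gastrula alone at 32.02 against 32.9, close to the rest.

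Enrichment went with local density. Over the 41 bins, the number of regions and the median enrichment percentile had Spearman correlations of -0.72, -0.71, -0.73 and -0.69 at the 4 stages. In bins of 120 or more regions the median percentile at the early blastula was 37.6 on scaffold 14 and 40.3 elsewhere, and at the late gastrula 39.9 and 41.8. In bins of at least 80 and under 120 regions it was 48.2 and 48.3 at the early blastula, and 53.8 and 48.2 at the late gastrula. In bins of at least 40 and under 80 regions it was 57.6 and 58.1, then 57.6 and 55.6. Within classes of density, scaffold 14 was therefore not uniformly lower. Across the 27 scaffolds density and the median percentile had Spearman correlations of -0.82, -0.67, -0.75 and -0.74. The bins and scaffolds share the lists and the background estimate behind each enrichment.

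**Figure D5:**
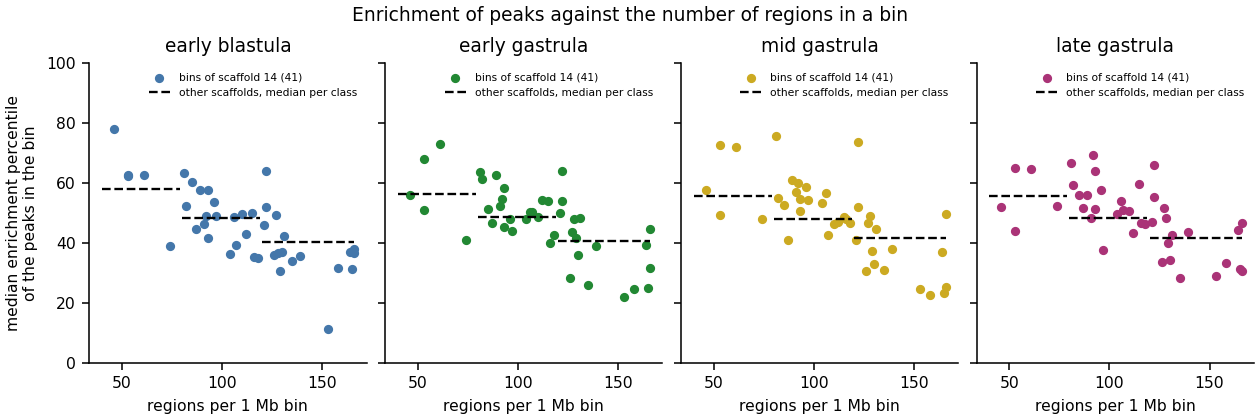
Median enrichment percentile of the peaks in a 1 Mb bin of scaffold 14 (y axis) against the number of consensus regions in the bin (x axis), 1 panel per stage and 41 bins in each, with the pooled median of the other large scaffolds in 3 classes of bins as dashed lines. The values fall from sparse to dense bins, and bin 5 stands lowest at the early blastula, at 11.2.

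Bin 5 had the lowest value of the scaffold at the early blastula. Its median enrichment percentile was 11.2 at the early blastula, 21.8 at the early gastrula, 24.5 at the mid gastrula and 29.1 at the late gastrula, while the median bin of scaffold 14 stood at 44.6, 48.1, 48.6 and 49.6. It was again the lowest bin at the early gastrula, but bin 19 was lower at the mid gastrula (22.8) and bin 14 at the late gastrula (28.4). The low values were concentrated in a stretch of 300 kb, positions 4200001 to 4500000, which was picked after its values were seen. It held 48, 46, 38 and 53 peaks at the 4 stages, or 160, 153, 127 and 177 peaks per Mb. At the early blastula their enrichment ran from 2.48 over a median of 3.98 to 8.48, and the median percentile was 5.01. The medians were 6.75 at the early gastrula, 8.66 at the mid gastrula and 15.6 at the late gastrula.

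The median −log10 p of these peaks was 23.7 at the early blastula, against 26.03 over the whole list, and 18 of 48 had the maximum score. It was 28.55 against 28.41 at the early gastrula, 30.55 against 29.47 at the mid gastrula and 25.97 against 28.01 at the late gastrula. The maximum score was held by 22 of 46, 18 of 38 and 21 of 53 peaks at these stages. The peaks were wide, with medians of 326, 388, 421 and 357 bp at the 4 stages. Of the 74 consensus regions in the stretch, 22 were constant, 12 belonged to the early blastula alone and 11 to the late gastrula alone. Without this stretch the median percentile of scaffold 14 was 44.6 instead of 43.8 at the early blastula, so its low rank did not rest on it. Of all windows of 100 kb with at least 10 peaks, a median under the 10th percentile at the early blastula was found in 6 of 99 on scaffold 14, 2 of them in this stretch, and in 37 of 1333 on the other scaffolds. The counts were 7 of 109 against 42 of 1404 at the early gastrula and 8 of 89 against 45 of 1135 at the mid gastrula. At the late gastrula the order was the other way, with 1 of 160 against 42 of 2386.

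Among constant regions with exactly 1 peak per stage (1240 of the 1468), peaks stood higher in the gastrula lists than in that of the early blastula. Their median enrichment percentile was 55.7 at the early blastula, 63.1 at the early gastrula, 60.1 at the mid gastrula and 68.0 at the late gastrula. The change within a region from the early blastula to the late gastrula had a median of 6.19 percentile points (5.10 to 7.32), against 4.19 elsewhere, and was upward in 837 regions (67.5%, against 62.9% elsewhere). The change at the first step had a median of 2.80 points (2.05 to 3.51), the highest of the 27 scaffolds, against 1.19 elsewhere. The highest of the 4 values fell at the late gastrula in 44.2% of the regions, against 40.96% elsewhere, and at the early blastula in 21.9%, against 25.3%. Percentiles are relative to each list, and the late gastrula list was the longest, with 64713 peaks against 46275 at the early blastula. The contribution of list length was not tested.

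The same peaks were slightly narrower at the late gastrula. The median change in width from the early blastula to the late gastrula was -10 bp (-15 to -5), the most negative of the 27 scaffolds, against -4 bp elsewhere. Their summits stayed in place, with a median distance of 8 bp between consecutive stages and 10 bp between the end points, as on the other scaffolds.

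Single sites reached the top of the lists although the scaffold as a whole did not. The constant region at 33248470 to 33248923 had enrichments of 23.5, 28.9, 24.7 and 22.4 from the early blastula to the late gastrula, at percentiles 99.98, 99.99, 99.88 and 99.75 of the lists. Its peak ranked 11 of 46275 at the early blastula and 5 of 48416 at the early gastrula, and it lay in bin 34, among the 3 sparsest bins. The leading site of the late gastrula, at 27011342 to 27011650, ranked 23 of 64713 there, with percentiles of 99.4, 99.84, 99.45 and 99.97 at the 4 stages. The site at 15101767 to 15102115 had percentiles of 91.8, 99.3, 99.88 and 98.9, highest at the mid gastrula.

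Other leading constant sites had different orders of stages. The site at 194283 to 194744, near the start of the scaffold, was highest at the early blastula, with percentiles of 99.7, 89.3, 75.02 and 74.4, and its peak was 453 bp wide at the first stage and 202 bp at the last. The site at 20016225 to 20016756 had percentiles of 99.7, 98.8, 99.87 and 99.78. The site at 8486491 to 8487279 had percentiles of 96.2, 99.6, 98.7 and 99.5, with a peak of 728 bp at the early blastula and 393 bp at the late gastrula. The late gastrula leaders in bins 36 and 15 had enrichments of 25.6 (35638083 to 35638457) and 24.7 (14727638 to 14727961).

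The leading sites of a single stage had lower enrichment. At the early blastula alone the leader was a peak at 246648 to 246905 with an enrichment of 12.9 (percentile 95.6), and the closest peak listed at any other stage, 51905 bp away, was that of the site near the start of the scaffold described above. The early gastrula leader at 31114001 to 31114529 reached 15.3 (percentile 95.2), and the late gastrula leader at 41286199 to 41286819 reached 15.8 (percentile 96.1). The mid gastrula leader at 13138536 to 13138793 reached 15.02, but with an irreproducible discovery rate of 0.0855 it lay near the limit of the lists at 0.100. The peaks second to the leaders of the early blastula alone and the late gastrula alone had enrichments of 12.7 and 15.2. They lay at 39137095 to 39137831 and at 28408905 to 28409275. Within each list these leaders stayed below the leading constant peak, which had 23.5, 28.9, 24.7 and 26.3 from the early blastula to the late gastrula. The classes differ in size, with 1538, 1580, 1561 and 1620 constant peaks against 509, 210, 90 and 737 of a single stage. A larger class favours a higher maximum.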

How the data were processed

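ATAC-seq peak lists for 4 stages, 1 per stage from 2 libraries each, were used as the authors deposited them. Bowtie2, bedtools and MACS2 are named in the submitters' processing notes. No build, read shift or option of the peak caller is given in the sources used here. Columns were read in the layout of the irreproducible discovery rate (IDR) tool, since the 12 columns carry no names. The deposited score is capped at 1000 and follows the IDR to within 1 unit, and a further deposited score is −log10 of the IDR. Enrichment is a fold (ratio) over background and significance a −log10 p-value, both as deposited and compared within a list only. Peaks with an IDR over 0.100 are absent and depth is unknown, and both can alter counts.

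Bins were filled by summit, gaps run edge to edge, and lengths are those in the scaffold names (1 peak lay 18389 bp beyond). Percentiles are ranks of enrichment within a whole list. Each statistic was computed for scaffold 14 and each of 26 other scaffolds of at least 10 Mb, without a test. The members and lists were chosen with earlier results of these data known. Named sites are, per stage, the 3 peaks of highest enrichment among constant regions and among regions of that stage alone, of which not all are described. Named bins are the 3 densest, the 3 sparsest and those of extreme stage shares, and gaps, runs and widest regions are the leading 3 of each. Merging, binning and gaps were checked on simulated data. Alternatives were an IDR of at most 0.01, lists of equal length, other bin sizes, lengths, distances, merging rules and comparison sets, and each list left out. Software was Python 3.11.15 with Matplotlib 3.10.9, NumPy 2.4.6, SciPy 1.17.1 and pandas 2.3.3.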

Additional observations from a re-analysis of the deposited data

How the results depend on the processing

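No paired analysis was possible because the 2 libraries of a stage were combined into 1 deposited list, and for the same reason no replicate could be left out. Of 87 recomputed values of 23 results, 73 moved by less than the 95% interval of counting error, 13 moved further without a change of direction and 1 reversed. The reversal was the late gastrula width, 6 bp above the other scaffolds over all peaks and -2 bp at an IDR of at most 0.01. The density of scaffold 14 relative to the median of the other scaffolds was 1.50, 1.45, 1.43 and 1.36 from the early blastula to the late gastrula. At an IDR of at most 0.01 it was 1.61, 1.54, 1.51 and 1.44, and against scaffolds of at least 30 Mb alone it was 1.42, 1.38, 1.37 and 1.30. With lists of equal length it was 1.41 at the late gastrula. In bins of 2 Mb the share of bins above the median of the others was 100% at the early gastrula, 95% at the mid gastrula and 100% at the late gastrula. The excess of regions of the early blastula alone was 0.90 points over all peaks, 0.50 with lists of equal length and 0.56 with peaks merged within 100 bp, where its interval reached 0, as it did at an IDR of at most 0.01 (0.97 points). The shortfall in regions of the late gastrula alone, 2.80 percentage points (-2.80) over all peaks, was -1.34 with lists of equal length. The excess of constant regions kept its direction under every alternative run, from 2.06 to 3.94 points. At an IDR of at most 0.01 the intervals of the enrichment shortfall reached 0 at the early gastrula (-1.46 points) and the late gastrula (-1.23 points). The causes were not tested. Leaving out the 300 kb stretch was added after the data were seen. The lists hold no counts of reads, so depth behind a peak or its absence is unknown, and a region absent from a list may have fallen short of the IDR limit.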
